A study of Mus musculus with 7 samples.

Results

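The genes described here are 30 genes of the kidney tubule and podocyte, chosen by name, of 34610 protein-coding and long noncoding mouse genes. They cover the glomerulus (3 genes), the proximal tubule (12), the loop of Henle and distal tubule (5), the collecting duct (5), nephron transcription factors with an epithelial cadherin (3) and the primary cilium (2). All 30 had a position in RefSeq's annotation of GRCm38.p6, which shares its coordinates with mm10. Peaks were assigned to a gene when their centre lay in the gene or within 5 kb of it. The windows of Slc22a6 and Slc22a8 overlap, and tags there were counted once in sums.

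CTCF was measured with ChIP-exo 5.0, which trims immunoprecipitated DNA with an exonuclease up to the bound protein, so that each tag marks a place where the enzyme stopped. There was 1 library each of brain, lung, kidney and liver, made from 100 mg of tissue of wildtype adult male mice aged 16 weeks, and 1 library each of 2,700,000, 270,000 and 27,000 wildtype liver cells. The paper states that liver cell numbers were estimated from the wet weight of tissue, so the cells were not counted. It describes no mouse material other than the tissues of males aged 16 weeks. The labels name no transgene and no treatment other than formaldehyde. With 1 library per condition there is no replicate check and no p-value. The intervals below are 95% intervals that cover counting error only, and they are exact where kidney is set against 1 other library. The kidney library is whole tissue, so fewer cells of a type and less binding per cell cannot be told apart, and peaks of a DNA-binding protein give no expression by which to check the organ label.

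CTCF is a zinc finger protein that binds a long DNA motif, marks the borders of chromatin domains and anchors loops between distant sites. Many of its sites are occupied in most cell types, while a minority differ between tissues. The kidney filters plasma through podocytes in the glomerulus and then recovers salt, water, glucose and amino acids through transporters and channels that are arranged in order along the tubule. The 30 genes encode parts of that filter, those transporters, and the factors that form the nephron.

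The deposited peaks were 21 bp wide, strand-specific and held at least 2 tags, so a value of 0 means that no such peak was listed. Tags per library ranged from 35594 in 27,000 liver cells to 6592538 in 2,700,000 liver cells, with 1635582 in kidney. In many peaks all tags lay at 1 position. Outside 13 bins of 10 kb that were dense in peaks in nearly all libraries, such peaks held 93.0% of the kidney tags, 82.6% in brain, 85.4% in lung, 76.5% in liver and 16.7% in 2,700,000 liver cells. They are given apart, as 1-position tags, and the other peaks are called spread peaks. Tags at a site or gene are those of spread peaks where nothing else is said, and a 0 there does not cover 1-position tags. A peak pair was a forward spread peak with a reverse spread peak 10 to 80 bp downstream, the shape that exonuclease stops on the opposite sides of a bound protein take.

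The promoter of Scnn1g was the only member promoter with a peak pair and is shown for that reason. Scnn1g encodes the gamma subunit of the epithelial sodium channel, which takes up sodium in the collecting duct. The promoter table of RefSeq, which spans 250 bases before to 50 after a start, held 26 promoters of 24 of the 30 genes. Slc5a2, Slc5a12, Cdh16, Wt1, Podxl and Scnn1a had no entry. The Scnn1g promoter lies at chr7:121734229-121734528 on the forward strand (GRCm38.p6), and the capitals mark the 62 bases between the forward and the reverse stop of its strongest pair in 2,700,000 liver cells.
Scnn1g: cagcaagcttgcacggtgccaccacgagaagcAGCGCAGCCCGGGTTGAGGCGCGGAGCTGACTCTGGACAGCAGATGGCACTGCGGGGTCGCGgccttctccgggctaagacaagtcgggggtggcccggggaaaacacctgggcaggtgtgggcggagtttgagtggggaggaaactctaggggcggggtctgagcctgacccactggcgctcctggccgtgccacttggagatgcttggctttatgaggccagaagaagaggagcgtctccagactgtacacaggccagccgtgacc

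That pair held 10 forward and 14 reverse tags, 61 bp apart, with stops at -218 and -157 bp relative to the start. The spread tags over the 300 bases numbered 27 in brain, 83 in 2,700,000 liver cells and 0 in the other 5 libraries. Kidney and lung each held 2 tags there, all at 1 position. A pair in the 2,700,000 cell library was present in 4.57% of 32851 promoters of all genes, and in 1 of the 26 member promoters. No other member promoter held more than 2 spread tags in that library.

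A core of the CTCF motif, CCANNAGNNGGC, was searched on both strands, with N standing for any base, so that 8 of its 12 letters are fixed. The best stretch of the Scnn1g promoter was acagcagatggc, from base 69 of the printed sequence on the same strand, which lies inside the capitals and holds 7 of the 8 fixed letters. At most 1 fixed letter was missing in 30.6% of all promoters and in 64.7% of the 1500 promoters with a pair, while a full match occurred in 2.43% and 17.7%. Of the 26 member promoters 10 had a stretch with at most 1 fixed letter missing and 0 had a full match.

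The deepest library covered most of the genes, whereas the kidney library held no spread pair at any of them. Genes with a pair numbered 22 in 2,700,000 liver cells, 6 in brain, 3 in lung, 3 in 270,000 liver cells, and 0 in kidney, liver and 27,000 liver cells. The shares over all genes were 57.8% in 2,700,000 liver cells, 12.2% in brain, 3.41% in lung, 5.57% in 270,000 liver cells, 1.95% in kidney, 1.49% in liver and 0.00867% in 27,000 liver cells. With a background of 1.95%, a count of 0 among 30 genes is near what the kidney library gave over all genes. The member windows were longer, with a median of 40.6 kb against 22.8 kb over all genes. Per Mb of window, the 2,700,000 cell library held 76.1 pairs at the kidney genes and 75.1 at all genes.

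**Figure D1:**
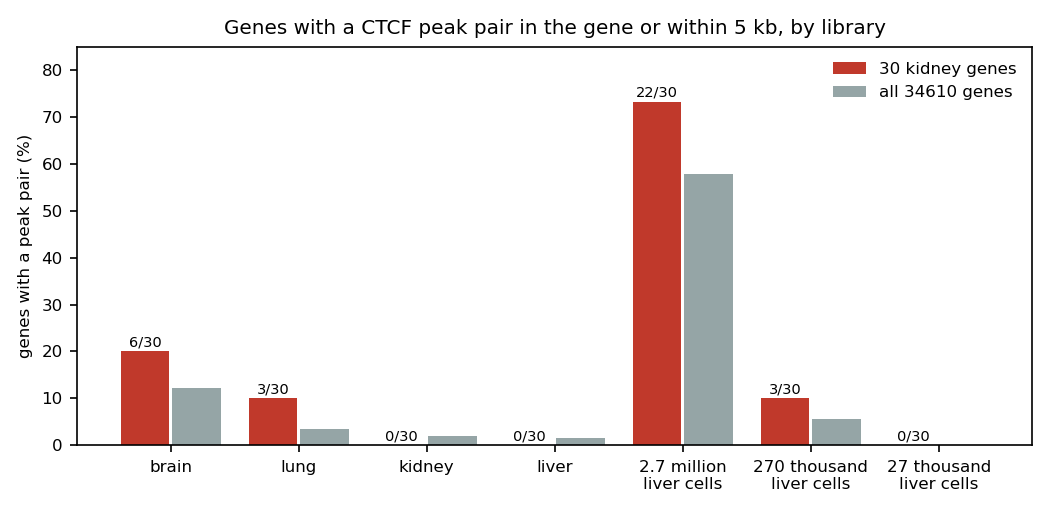
Share of genes (%, vertical axis) with a CTCF peak pair in the gene or within 5 kb in each library, for the 30 kidney genes (red, with the number of genes above the bar) and all 34610 genes (grey). The bar for kidney genes stands at 22 of 30 in 2,700,000 liver cells and at 0 in kidney.

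The brain pairs lay at Nphs1, Cubn, Slc34a1, Slc12a1, Slc12a3 and Scnn1g. The lung pairs lay at Podxl, Slc34a1 and Slc5a1, so that Slc34a1, which encodes the phosphate transporter of the proximal tubule, was the member with a pair in both organs. In 270,000 liver cells the pairs lay at Lrp2, Slc34a1 and Slc12a3. Pairs of the 2,700,000 cell library at the members had their stops a median of 43 bp apart (quartiles 27.5 and 62), against 49 bp over all its pairs (36 and 65), and held a median of 17 tags against 12.

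Kidney gained 2 genes with a pair when 1-position peaks were allowed, against 8.42% of all genes. The pair in Slc34a1 on chromosome 13, centred at 55410159, joined 6 forward and 3 reverse tags 34 bp apart, all at 1 position on each strand. The pair in Slc12a3, centred at 94343477 on chromosome 8, joined 2 forward tags at 1 position with 5 spread reverse tags 70 bp away. The latter lies at a site of the other libraries that is described below.

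Most kidney tags at the kidney genes were 1-position tags. The windows held 51 spread and 994 1-position tags in kidney, so that 95.1% were at 1 position, against 92.8% over the windows of all genes. Brain held 171 spread and 497 1-position tags, lung 129 and 436, and liver 60 and 209. Per 100 kb, kidney had 3.27 spread tags at the members and 4.62 at all genes, whereas brain had 11.0 and 9.33, lung 8.27 and 6.03, and liver 3.85 and 4.13. The deepest library had 336 spread tags per 100 kb at the members and 263 at all genes.

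The 1-position tags of kidney were listed at nearly all of the genes. Their density at the members was 63.7 per 100 kb against 59.7 over all genes. They were absent at 1 gene, Aqp2, the vasopressin-regulated water channel, whereas 4 genes lacked them in brain, 8 in lung and 6 in liver. They had a median of 0.581 per kb and a maximum of 1.54 per kb at Podxl. Kidney had the highest 1-position density of the 4 organs at 22 members, and at 61.8% of all genes with such tags. These values are not scaled for depth. Outside dense bins kidney had 1341999 1-position tags, against 763976 in brain, 556541 in lung and 302510 in liver. Spread tags of kidney were listed at 11 genes, with the highest density, 0.399 per kb, at Slc34a1.

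**Figure D2:**
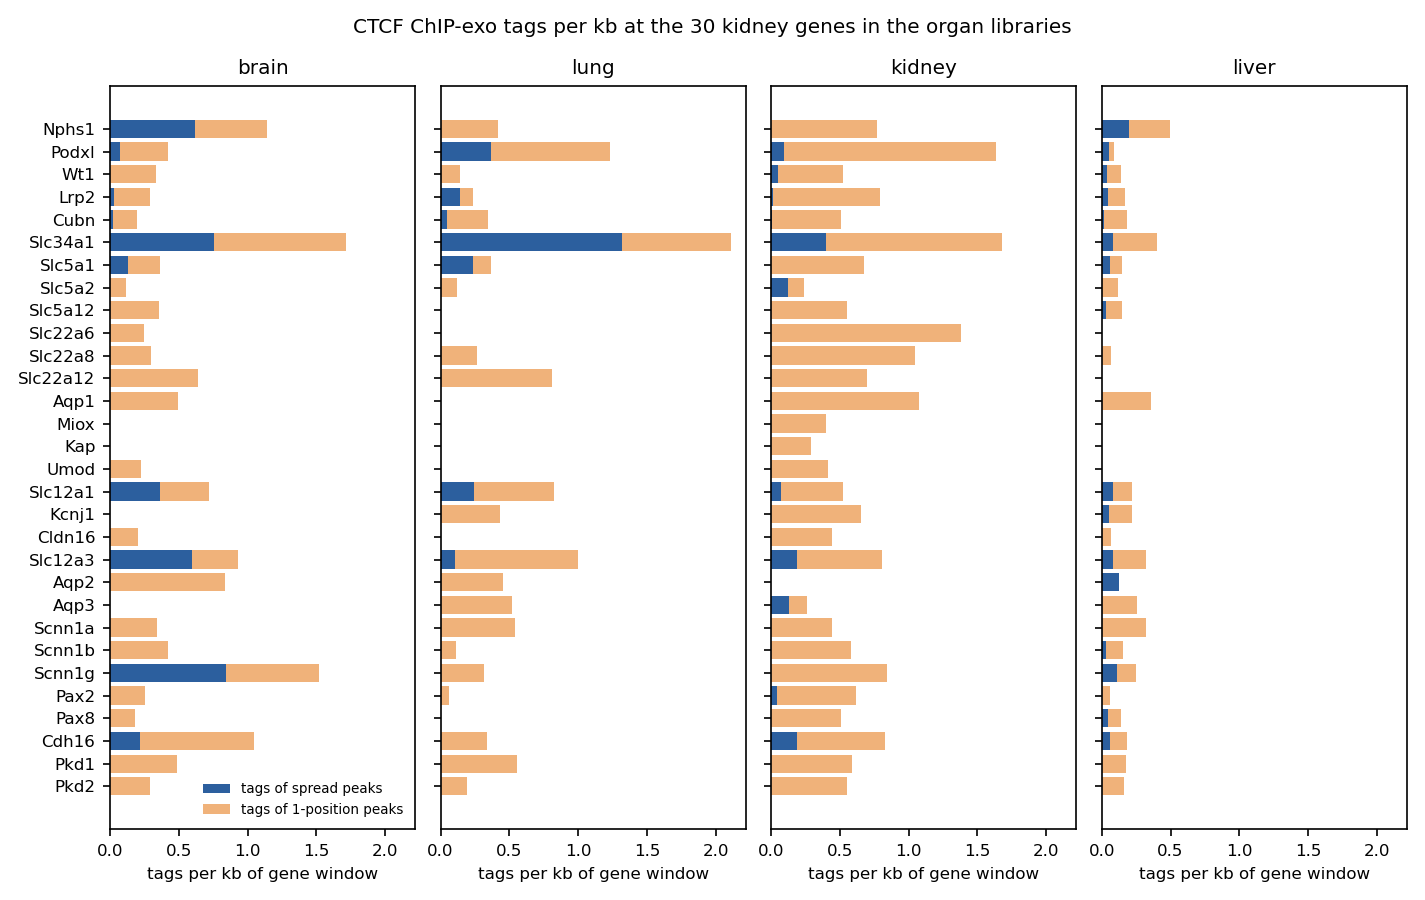
CTCF ChIP-exo tags per kb (horizontal axis) at the 30 kidney genes in the 4 organ libraries, not scaled for depth, with tags of spread peaks in blue and tags of 1-position peaks in orange stacked on them. Kidney bars are mostly orange, with 994 of its tags at 1 position and 51 in spread peaks, whereas the blue parts of brain and lung are concentrated at a few genes.

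The spread and the 1-position peaks of kidney differed in where they lay. Pairs of any library within 50 bp of each other were merged into sites, which gave 57 sites at the members and 74928 in the genome, and tags were counted in 200 bp around each. Of the 18 spread kidney peaks in the member windows 6 lay within 100 bp of a site, which is 33.3%, against 32.1% of its spread peaks in the genome. Of its 292 1-position peaks 16 did, or 5.48%, against 3.93% in the genome. The spread peaks of brain lay near a site in 85.1% and those of lung in 89.5%, against 25.9% in liver. The genome shares were 72.0% in brain, 75.5% in lung and 23.7% in liver, so the organs differed in much the same way outside these genes.

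The 57 sites formed 41 places that did not overlap, at 22 genes. All of them included a pair of the 2,700,000 cell library, and 45 had a pair in that library alone, so a site bound in kidney but not in liver could have been missed. No site was found at 8 genes, namely Wt1, Slc5a2, Slc22a12, Aqp1, Kap, Cldn16, Aqp2 and Aqp3. Inside the gene lay 36 sites and 21 lay outside it. The annotation used gives no exons, so exonic and intronic positions were not separated. Of 46 sites with a start in the promoter table, 4 lay within 1 kb of it.

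Sites with spread tags numbered 8 in kidney, 20 in brain, 11 in lung and 9 in liver. As shares these are 14.0%, 35.1%, 19.3% and 15.8%, beside 11.8%, 27.8%, 14.2% and 10.9% of all sites. The order of the organs was that of all sites except that liver stood 1 site above kidney. The member sites were stronger in the deepest library, with a median of 54 tags against 38 over all sites. The 25 sites with organ tags had a median of 79 tags there, and the 32 without had 25.5.

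Kidney held less than brain and lung at these sites after scaling. The libraries were scaled by their spread tags at 10000 reference sites, the strongest pairs of the 2,700,000 liver cells, which numbered 25707 in kidney, 64395 in brain, 40571 in lung and 17417 in liver. Counting each tag once, the member sites held 24 spread tags in kidney, 150 in brain, 118 in lung and 17 in liver. The scaled ratio of kidney was 0.401 to brain (0.249 to 0.619), 0.321 to lung (0.198 to 0.501) and 0.957 to liver (0.493 to 1.90). Scaled by all spread tags instead, the ratios were 0.255 to brain, 0.191 to lung and 1.30 to liver (0.668 to 2.57). Over the whole gene windows the ratios were 0.747 to brain (0.535 to 1.03), 0.624 to lung (0.442 to 0.869) and 0.576 to liver (0.389 to 0.851). By all spread tags they were 0.475 to brain (0.340 to 0.653), 0.371 to lung (0.263 to 0.517) and 0.780 to liver (0.527 to 1.15), so the call against brain was gained and that against liver was lost. The median ratio of kidney to the mean of the other organs was 0.741 over all genes tested and 0 over all sites tested. At this scale kidney was thus below the other organs at the median gene as well. The median of 0 over sites means only that kidney had no listed spread peak at 51.9% of them. Peaks under 2 tags are not listed, so that median cannot tell how far kidney was lower. No summed ratio over all sites is given.

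Gene by gene, 10 of the 30 members reached 10 spread tags over the organs and were compared. Kidney was at least 2 times lower than the mean of the other 3 organs at 6, namely Nphs1, Lrp2, Cubn, Slc5a1, Slc12a1 and Scnn1g. It was at least 2 times higher at 1, Cdh16. At Cubn and Slc12a1 kidney could not be told from any of the 3 organs by counting error. At Lrp2 it could not be told from brain (0.0954 to 6.12) but was below lung and liver. At Slc5a1 it was below lung alone, with an upper limit of 0.409. At Nphs1 and Scnn1g it was below brain and liver, while lung had 0 spread tags. These genes were picked by the same counts. With the gene body alone, 2 of 8 genes compared were lower. Over all genes compared in windows with 5 kb, 40.5% were lower and 20% higher by that limit. The other 20 members had too few tags in the organs for a ratio. When 1-position tags were added to both the genes and the reference sites, the direction turned. Then 18 of 28 genes compared were higher in kidney and 1 was lower, against 62.7% and 3.42% of all genes, and the median over all genes was 2.46. The part of the 1-position tags in the differences between organs was not tested.

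Site by site, 13 sites in 11 places reached 10 organ tags. Kidney was at least 2 times lower at 8 sites in 7 places and at least 2 times higher at 1. Over all sites compared 56.8% were lower and 17.6% higher, so these shares are near the background. At all 8 lower sites kidney was listed at 0, as it was at 51.9% of all sites compared. Intervals given below for the lower sites rest on the same counts that picked them and take an unlisted peak as 0. They are no separate support for a difference.

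**Figure D3:**
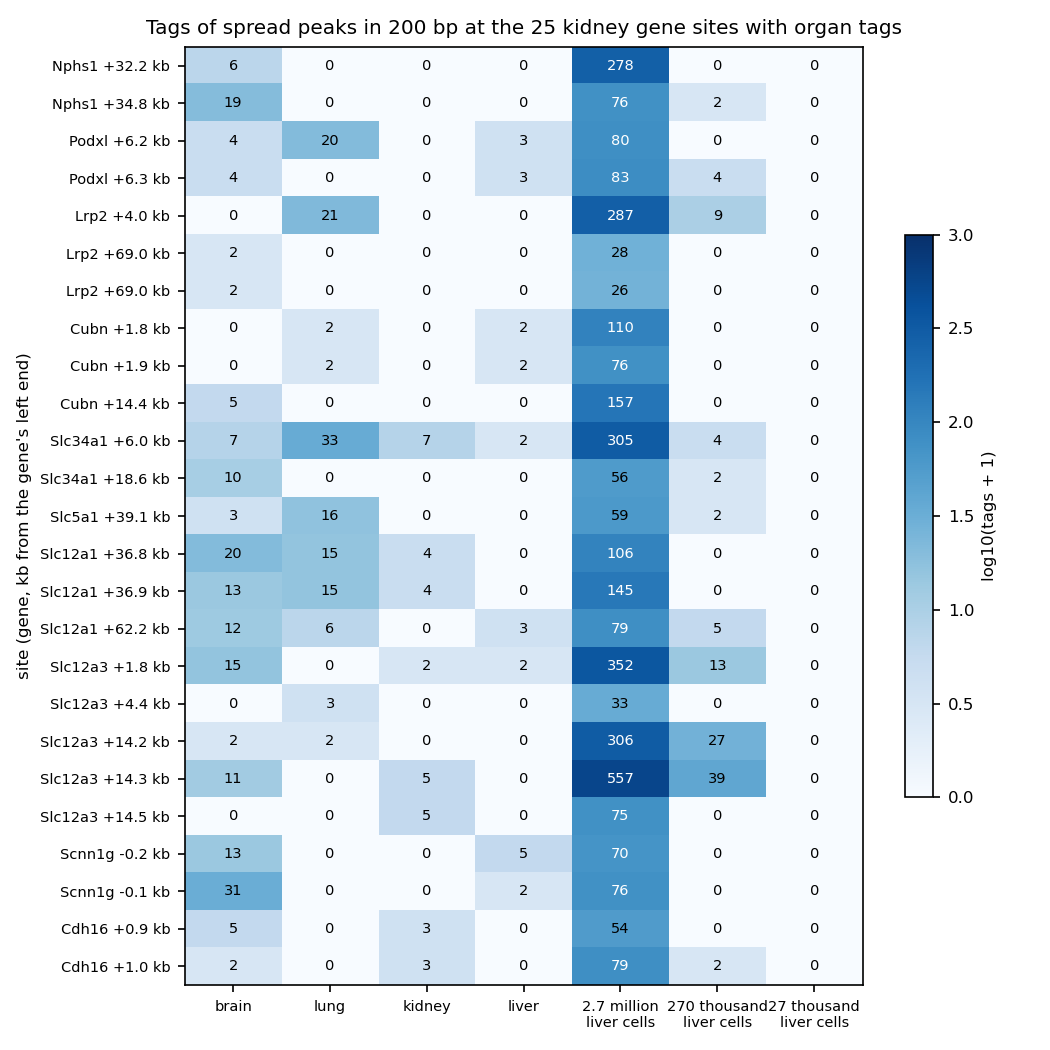
Tags of spread peaks in 200 bp (number in each cell, colour as log10 of tags + 1, not scaled for depth) at the 25 kidney gene sites with tags in an organ, named by gene and distance in kb from the gene's left end, in the 7 libraries. Windows of neighbouring sites can overlap and share tags. Kidney has tags at 8 of the 25 rows, with 7 as its highest value, at Slc34a1.

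The glomerular genes had spread tags in all 4 organs in sum, with 8 in kidney, 29 in brain, 20 in lung and 13 in liver over 3 genes. Nphs1 encodes nephrin, the main protein of the slit diaphragm between podocyte foot processes. Its window held 0 spread tags in kidney, 25 in brain, 0 in lung and 8 in liver, against 678 in 2,700,000 liver cells. All but 1 of its 7 sites lay beyond the right end of the gene. The site from 30490301 to 30490500 on chromosome 7, centred 1778 bp outside the gene, held 6 tags in brain, 278 in 2,700,000 liver cells and 0 elsewhere, while lung had 8 1-position tags there.

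Brain was high at a second Nphs1 site, from 30492858 to 30493057 and centred 4335 bp outside, where it held 19 tags. The 2,700,000 cells held 76 and the 270,000 cells 2 there. Lung, kidney, liver and the 27,000 cells were at 0. The mean of the other organs, scaled to kidney, comes to 2.53 tags, close to the 2 tags of the smallest listed peak, and kidney had 3 1-position tags there.

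Podxl encodes podocalyxin, the charged surface protein of podocytes that is also made by endothelium. Its site from 31525563 to 31525762 on chromosome 6, inside the gene, held 0 spread tags in kidney, 4 in brain, 20 in lung and 3 in liver, with 80 in 2,700,000 liver cells and 0 in the smaller titration libraries. The mean of the other organs would give 6.23 tags in kidney. The ratio of kidney to lung was 0 with an upper limit of 0.320, and to brain 0 with an upper limit of 3.80. Counting error thus leaves kidney below lung but not below brain, at a site picked by these same counts. Kidney had 5 1-position tags there. The strongest site of the gene, which overlaps this one and is centred at 31525772, held 0 in kidney, 4 in brain, 0 in lung, 3 in liver, 83 in 2,700,000 cells, 4 in 270,000 cells and 0 in 27,000 cells.

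Over the whole Podxl window kidney had 5 spread tags, against 4 in brain, 20 in lung and 3 in liver, and a ratio of 0.802 to the mean of the others. Wt1, the zinc finger factor that podocytes keep through life, had no site, and its window held 3 spread tags in kidney, 2 in liver, 22 in 2,700,000 liver cells and 0 in brain and lung.

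The proximal tubule genes had 16 spread tags in kidney, 38 in brain, 83 in lung and 20 in liver over 12 genes. Lrp2 encodes megalin, the endocytic receptor that takes filtered proteins out of the tubular fluid. The Lrp2 site from 69428232 to 69428431 on chromosome 2, inside the gene near its left end, held 21 tags in lung, 287 in 2,700,000 liver cells and 9 in 270,000 liver cells. Brain, kidney, liver and 27,000 liver cells were at 0. Just beyond the window, brain and lung each had a spread reverse peak of 3 tags, 4.105 and 4.106 kb from the gene's left end. The ratio of kidney to lung was 0 with an upper limit of 0.303, while the mean of the other organs comes to 4.44 kidney tags. In the whole Lrp2 window kidney held 2 spread and 134 1-position tags, and none of the latter lay at this site.

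Cubn encodes cubilin, the partner of megalin. Its strongest site, from 13290679 to 13290878 on chromosome 2 inside the gene, held 5 tags in brain, 157 in 2,700,000 liver cells and 0 in the other 5 libraries, with 2 1-position tags in liver. The Cubn window had 2 spread tags in kidney, 5 in brain, 10 in lung and 4 in liver, and the noncoding gene Gm13270 also overlaps the site. These are few tags for a window of 226 kb, the longest of the 30.

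Slc34a1 had the single site with spread tags in all 4 organs. It lies from 55405497 to 55405696 on chromosome 13, inside the gene, 5949 bp from the start. Brain held 7 tags, lung 33, kidney 7, liver 2, the 2,700,000 cells 305, the 270,000 cells 4 and the 27,000 cells 0. The kidney tags came from 1 peak, which held the most tags of the spread kidney peaks at the 30 genes. That peak lay on the forward strand, with a standard deviation of 0.350 bp, so its 7 tags were nearly at 1 position. The ratio of kidney was 2.51 to brain (0.750 to 8.37) and 0.335 to lung (0.125 to 0.770), so kidney was below lung and not distinguishable from brain by counting error. Sites with all 4 organs were 1 of 57 here, 1.75%, and 1.98% of all sites.

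A further site in the Slc34a1 window, from 55418163 to 55418362, lies 3568 bp beyond the gene and within F12, which encodes coagulation factor XII. It held 10 tags in brain, 56 in 2,700,000 cells, 2 in 270,000 cells and 0 in lung, kidney, liver and 27,000 cells, with 6 1-position tags in lung and 2 in liver. The ratio of kidney to brain was 0 with an upper limit of 1.12.

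Slc5a1 encodes the sodium-glucose transporter of the late proximal tubule and intestine. Its site from 33143190 to 33143389 on chromosome 5, inside the gene, held 0 tags in kidney, 3 in brain, 16 in lung, 0 in liver, 59 in 2,700,000 cells, 2 in 270,000 cells and 0 in 27,000 cells. Lung was the highest organ there, as at Lrp2, Podxl and Slc34a1, and the ratio of kidney to lung was 0 with an upper limit of 0.409.

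The other proximal tubule genes had few tags in the organs. Slc5a12, a monocarboxylate transporter, had its strongest site at 110637902 on chromosome 2, with 39 tags in 2,700,000 liver cells and 0 elsewhere. The organic anion transporters Slc22a8 and Slc22a6 had 1 site each, at 8587500 and 8630390 on chromosome 19, with 17 and 15 tags in 2,700,000 liver cells and 0 spread tags in the other 6 libraries. Miox, which starts the breakdown of inositol, had 9 tags at 89339232 on chromosome 15 in the same library and 0 elsewhere. The 27,000 liver cells held 5 spread tags in the Slc5a12 window, all of their spread tags at the 30 genes, and these did not lie at a site.

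Slc5a2, the glucose transporter of the early proximal tubule, Slc22a12, the urate transporter, Aqp1, a water channel, and Kap, an androgen-regulated kidney protein, had no site. Their windows held 2 to 10 spread tags in 2,700,000 liver cells, and in kidney 2 at Slc5a2 and 0 at the other 3.

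The strongest site of the 30 genes lay in a loop and distal tubule gene, Slc12a3. The next gene of this group, Slc12a1, reached 145 tags at a site in 2,700,000 liver cells, against 305 at Slc34a1. Slc12a3 encodes the thiazide-sensitive sodium chloride cotransporter of the distal convoluted tubule, and its window had 25.7 spread tags per kb in 2,700,000 liver cells, the highest of the 30 genes. The site from 94343335 to 94343534 on chromosome 8, inside the gene and 14227 bp from its start, held 557 tags in that library, rank 27 of 74928. It held 5 tags in kidney, 11 in brain, 0 in lung, 0 in liver, 39 in 270,000 cells and 0 in 27,000 cells.

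That Slc12a3 site was the member site above the 2-fold limit in kidney, with a ratio of 3.42 to the mean of the other organs. The 5 kidney tags came from 1 reverse peak, lung and liver had no spread peak, and lung had 11 1-position tags. Against brain alone the ratio was 1.14 (0.310 to 3.56), so kidney could not be told from brain. With windows of 100 bp, or per listed tag, no member site was above the limit.

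A second strong place in Slc12a3, from 94330789 to 94330988 and 1681 bp from the start, had 2 tags in kidney, 15 in brain, 0 in lung, 2 in liver, 352 in 2,700,000 cells, 13 in 270,000 cells and 0 in 27,000 cells. Its ratio was 0.671 to the mean of the others. Both places had a pair in 270,000 liver cells.

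**Figure D4:**
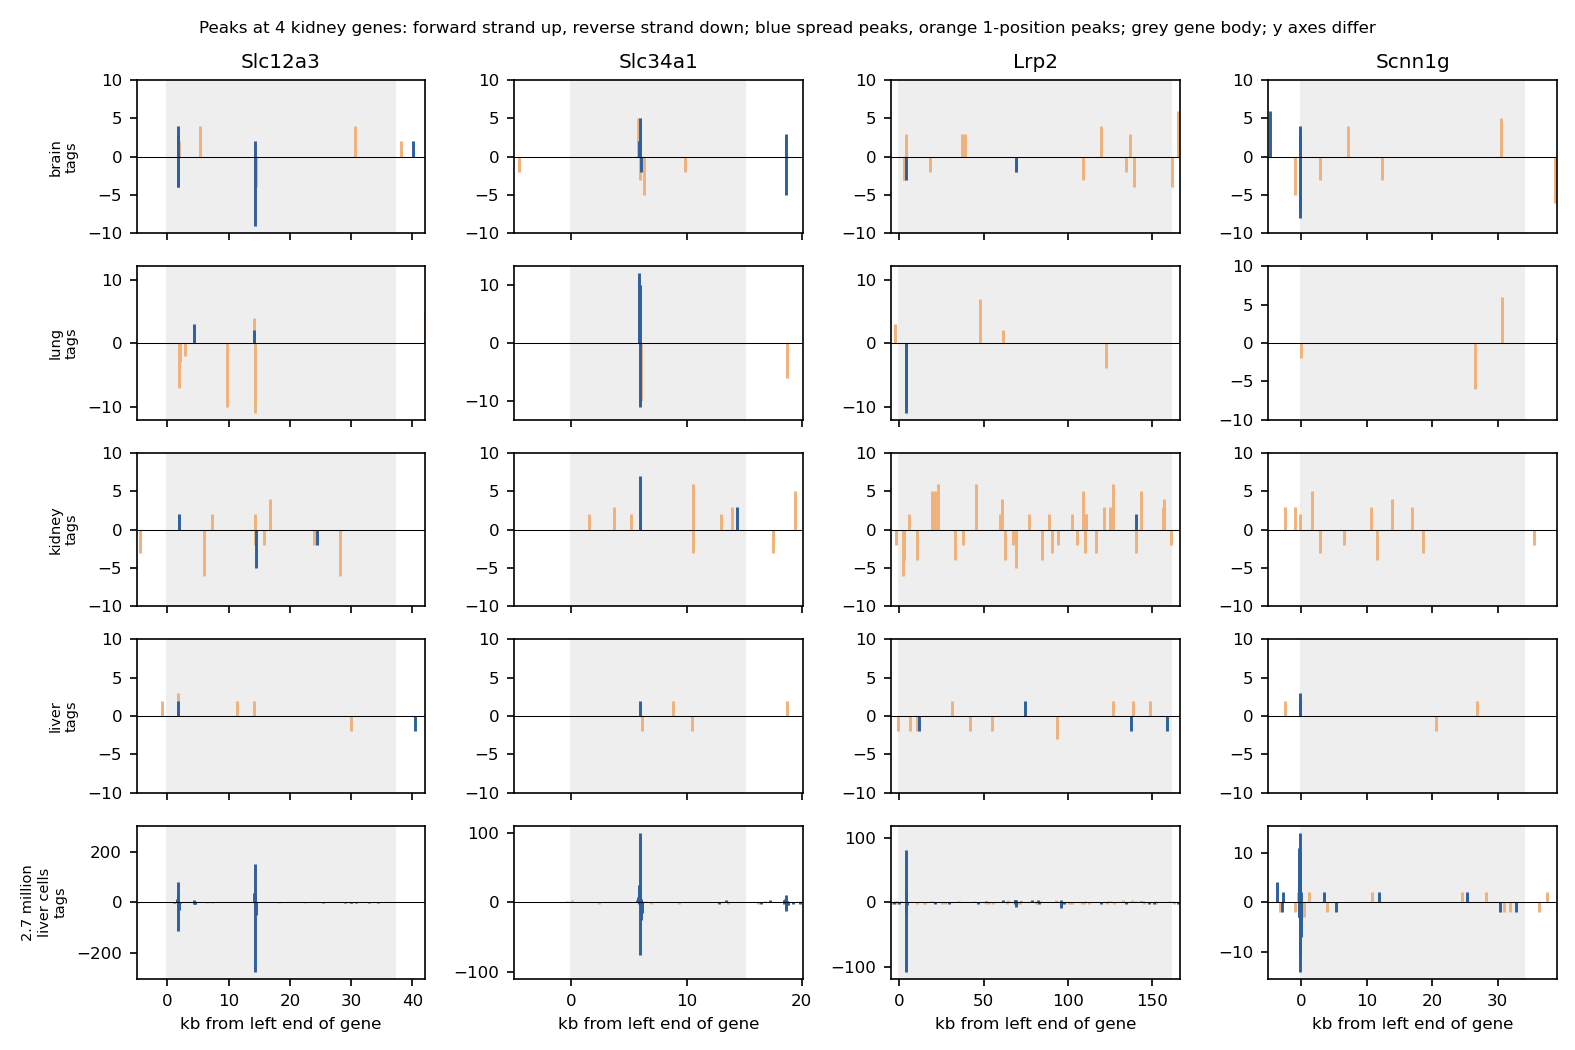
Tags of each peak (vertical axis, forward strand up and reverse strand down, with different ranges per panel) along Slc12a3, Slc34a1, Lrp2 and Scnn1g in the 4 organs and 2,700,000 liver cells, against distance in kb from the gene's left end, with spread peaks in blue, 1-position peaks in orange and the gene body in grey. In the deepest library the high blue peaks stand at a few places. Kidney has a blue peak, on a single strand, at the places near 1.78 and 14.33 kb in Slc12a3 and 5.975 kb in Slc34a1. It has none at the places near 4.41 kb in Slc12a3 and 18.64 kb in the Slc34a1 window. It also has none at the Lrp2 place with 287 tags or the Scnn1g promoter.

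Slc12a1 encodes the furosemide-sensitive cotransporter of the thick ascending limb. Its window held 6 spread tags in kidney, 32 in brain, 21 in lung and 7 in liver. The strongest site, from 125189326 to 125189525 on chromosome 2 inside the gene, held 4 tags in kidney, 13 in brain, 15 in lung, 0 in liver, 145 in 2,700,000 cells and 0 in the smaller titration libraries. Kidney there was within counting error of brain, with a ratio of 0.771 (0.183 to 2.50), and of lung, with 0.421 (0.102 to 1.32).

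Another Slc12a1 site, from 125214664 to 125214863, held 0 tags in kidney, 12 in brain, 6 in lung, 3 in liver, 79 in 2,700,000 cells, 5 in 270,000 cells and 0 in 27,000 cells. The mean of the other organs would give 4.34 kidney tags. Brain, lung and liver each had tags at this site, and kidney was the organ without. The upper limit of its ratio was 0.902 to brain, 1.34 to lung and 1.64 to liver. Counting error thus leaves kidney below brain alone, at a site picked by these same counts.

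Kcnj1 encodes the ROMK potassium channel. Its site at 32388280 on chromosome 9 held 54 tags in 2,700,000 liver cells and 0 spread tags in the others, with 6 1-position tags in kidney and 6 in lung. Umod, the gene of uromodulin, the most abundant protein of normal urine, had 20 tags at 119476685 on chromosome 7 in 2,700,000 cells and 0 elsewhere. Cldn16, a claudin of magnesium reabsorption, had no site and 3 spread tags in the deepest library, and 0 in the other libraries.

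The collecting duct genes had 2 spread tags in kidney, 37 in brain, 0 in lung and 9 in liver over 5 genes. All 37 brain tags were at Scnn1g, the gene whose promoter is printed above. The site from 121734194 to 121734393 on chromosome 7, which covers the capitals, held 0 tags in kidney, 31 in brain, 0 in lung, 2 in liver, 76 in 2,700,000 cells and 0 in the smaller titration libraries. It was the highest brain value at any member site. The ratio of kidney to brain was 0 with an upper limit of 0.317, and the mean of the other organs would give 5.11 kidney tags.

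The neighbouring Scnn1g site, from 121734074 to 121734273, overlaps it and shares tags. It held 0 in kidney, 13 in brain, 0 in lung, 5 in liver, 70 in 2,700,000 cells and 0 in the smaller titration libraries. Over the whole gene window brain had 37 spread tags and kidney 0, with an upper limit of 0.263 for the ratio, while kidney had 37 1-position tags.

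The other channel subunits lacked organ tags at their sites. Scnn1a, the alpha subunit, held 43 tags at 125328425 on chromosome 6, and Scnn1b, the beta subunit, 33 at 121899620 on chromosome 7, both in 2,700,000 liver cells with 0 spread tags in the other 6 libraries. Of the 3 subunit genes, which are co-expressed in the collecting duct, Scnn1g thus had the only sites with organ tags. The water channels Aqp2 and Aqp3 had no site, and their windows held 12 and 4 spread tags in the deepest library.

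The transcription factors and the nephron cadherin had 10 spread tags in kidney, 7 in brain, 0 in lung and 5 in liver over 3 genes. Cdh16 encodes kidney-specific cadherin of the tubule epithelium and was the gene above the 2-fold limit in kidney, with a ratio of 3.13. With peaks of at least 3 tags, or per listed tag, no member gene was above that limit. The Cdh16 window held 6 spread tags in kidney, 7 in brain, 0 in lung and 2 in liver. The kidney tags came from forward peaks of 3 tags each, with no spread reverse peak. The ratio of kidney to brain was 2.15 (0.596 to 7.46), so kidney could not be told from brain by counting error. The strongest Cdh16 site, from 104602834 to 104603033 on chromosome 8 inside the gene, held 3 tags in kidney, 2 in brain, 0 in lung, 0 in liver, 79 in 2,700,000 cells, 2 in 270,000 cells and 0 in 27,000 cells, too few organ tags for the comparison.

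Pax2 and Pax8 encode paired-box factors needed to form the nephron. Pax2 had 56 tags at its site at 44754889 on chromosome 19 in 2,700,000 cells and 0 spread tags elsewhere at that site, while its window held 4 spread tags in kidney and 0 in the other organs. Pax8 had 8 tags at 24479314 on chromosome 2 in 2,700,000 cells and 0 spread tags elsewhere. Both Pax genes thus had no site with organ tags.

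Pkd1 and Pkd2 encode the polycystins of the primary cilium, whose loss causes cystic kidneys. Neither had spread tags in any organ. Pkd2 had a strong site at 104472638 on chromosome 5 inside the gene, with 139 tags in 2,700,000 liver cells and 0 in the other 6 libraries. Pkd1 had 16 tags at 24545475 on chromosome 17, 3214 bp outside the gene and over the noncoding gene Gm33508, in 2,700,000 cells and 0 elsewhere. In kidney both genes had 34 1-position tags each.

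The 31 other kidney genes that were listed and matched had a pair at 24 genes in 2,700,000 liver cells and at 0 in kidney. The shares over all genes were 57.8% and 1.95%. Windows of this list were longer, with a median of 45.9 kb against 22.8 kb over all genes. They held 52.6 pairs per Mb in 2,700,000 liver cells, against 75.1 over all genes. The 13 other kidney genes that were compared between organs had a median ratio of 1.08. The median over the 10 compared members was 0.458. Kidney had 3.26 spread tags per 100 kb at these genes, as it had at the members with windows counted one by one.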

How the data were processed

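The authors sequenced paired reads of 40 bp, aligned them and removed PCR duplicates and reads that were not uniquely placed. The submitters' processing notes name BWA 0.7.9a, bcl2fastq 2.16 and mm10. For alignment the paper mentions yeast and human genomes. The labels give 0.3% formaldehyde and the paper 1%, and the labels name a CTCF antibody but IgG in the extraction text. The authors deposited, for each library, strand-specific peaks with a tag count that is not normalized and the standard deviation of tag positions.

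From these counts, pairs of 10 to 80 bp were formed with each peak used once, strongest first. Sites merged pairs within 50 bp. Ratios of kidney to the mean of brain, lung and liver were taken where the 4 organs held at least 10 spread tags. Reference sites were at least 100 bp apart and outside dense bins (at least 20 peaks in each of 6 libraries), the mitochondrial genome and unplaced sequences. The pairing was tested on simulated data. The members and lists were chosen with earlier results of these data known. Sites named are each gene's strongest over the 7 libraries and those beyond the 2-fold limit. Other sites named, and the genes Aqp2 and F12 singled out, were chosen after their values were seen. Kirrel1 and Tf were not matched in the annotation. Calls for single genes of the list of other kidney genes are not reported here. Gene positions and promoters came from RefSeq. Scripts ran in Python 3.11.15 with scipy 1.17.1, pandas 2.3.3, numpy 2.4.6 and matplotlib 3.10.9.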

Additional observations from a re-analysis of the deposited data

How the results depend on the processing

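No paired analysis was possible because each condition had 1 library, and for the same reason no replicate could be left out. Of 86 recomputed values 65 stayed within 1.5 times the main count or within the interval of the main ratio. Some of these 65 could not move. A count of 0 stays at 0 under stricter settings, and rescaling leaves the number compared unchanged. The number of kidney genes with a pair fell in brain to 0 with peaks of at least 5 tags, in 270,000 liver cells to 1 with peaks of at least 3 or 5 tags, and rose in kidney to 2 with 1-position peaks. Gene by gene, the ratio of summed kidney tags to the mean of the other organs was 0.641 (0.469 to 0.862). With tags of all peaks it turned to 2.58, with 28 genes compared, 18 higher and 1 lower, and 93.0% of kidney tags are 1-position tags. Per listed tag it was 0.201 with 0 genes higher. With peaks of at least 3 tags 0 genes were higher, and with the gene body alone 2 were lower. Site by site, where overlapping windows count separately, the ratio was 0.507 (0.344 to 0.726). Shared tags enter it more than once, with 33 kidney tags in place of 24, so that interval is too narrow. The ratio became 0.144 per listed tag with 0 higher and 0.815 with all peaks, with 21 sites compared and 3 higher. Windows of 100 bp left 0 higher, and windows of 400 bp gave 23 compared, 5 higher and 14 lower. Scaling by all spread tags moved the median ratio over all genes compared from 0.741 to 0.575 and the summed ratio at the members to 0.493. The causes were not tested. Kidney values at single sites are 7 tags or fewer, and peaks under 2 tags are not listed.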

Other observations

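Genes typical of the other organs were compared in the same way. Of 20 lung genes, 8 were compared and 5 were at least 2 times lower in kidney (Sftpc, Aqp5, Abca3, Cav1 and Cdh5), with 1 higher (Hopx). Of 20 brain genes, 14 were compared, 6 were lower and 3 higher (Gfap, Grin1 and Camk2a). Of 19 liver genes that matched, 5 were compared, 1 was lower (Apob) and 2 were higher (Apoa1 and Asgr1). Among all genes compared, 40.5% were lower and 20% higher. The median ratios were 0.331 for lung genes, 0.812 for brain genes and 0.756 for liver genes, against 0.741 over all genes compared. A kidney pair was present at 1 brain gene and at 0 lung and 0 liver genes, against 1.95% of all genes.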
